A study of Mus musculus with 12 samples.

Results

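The 32 genes described here form the piRNA pathway and germ granule module of the mouse testis. They were picked by gene symbol from the 20718 genes of the expression table, by no rule on measured values. Earlier results of these data were known when the list was made. RNA was sequenced from testes of F0 mice of a strain given as IRC mouse, in 12 libraries of total RNA. A virus raised the long noncoding RNA lncRNA8276 in the OV group and inhibited it in the KD group, and 5NC and 3NC, names left unexplained by the labels, were taken as virus controls of OV and KD. That assignment is inferred from the order of the groups in the study's design text, so each treated group was also set against the other control. Each group had 3 libraries, and since nothing says whether they came from separate animals, p-values measure only the spread between these samples. The promoter of the viruses, the infected cell types, the route of delivery and the age of the animals are not stated in the labels, and the level of lncRNA8276 itself was not analysed here.

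PIWI-interacting RNAs (piRNAs) are small germ cell RNAs that guide PIWI proteins to transposon and messenger RNAs. In the mouse testis they are cut from long precursors at the outer membrane of mitochondria, trimmed and methylated at their ends, and many of their proteins gather in germ granules: intermitochondrial cement in spermatocytes and the chromatoid body in round spermatids. A first wave of the pathway silences transposons in fetal prospermatogonia, and a later wave at the pachytene stage of meiosis is switched on by the transcription factor A-MYB, the product of Mybl1. Many of the Tudor domain proteins of the granules bind methylated arginines of PIWI proteins and hold the granules together.

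All 32 members passed the filter on low counts, as did 16320 genes in all. Levels between genes were compared in FPKM, fragments scaled to transcript length and library size, the unit inferred here for the deposited normalised values. Levels between libraries are given in CPM, reads per library size after edgeR's TMM scaling. Summed over members, FPKM ran from 3068 to 3363 across the 12 libraries, and the members took 0.659% to 0.738% of the reads of a library. The libraries held 15448442 to 16355720 estimated reads.

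By role, the 2 genes grouped as RNA helicases, Ddx4 and Ddx25, stood high at a median of 276.8 FPKM. Mov10l1, Tdrd9 and Tdrd12 are also helicases but were grouped under other roles, and had 20.9, 32.25 and 30.3 FPKM. The 3 germ cell RNA-binding proteins had a median of 85.4 FPKM and the 9 Tudor domain scaffolds 41.4. The 3 PIWI genes had a median of 38.5 FPKM, the 11 genes of precursor processing and piRNA end formation 19.4, the 2 of arginine methylation 11.4 and the 2 transcription factors 10.1. Mael, whose product acts in precursor processing and transposon silencing, was the most abundant member at 939 FPKM, with a range of 884 to 1018 over the libraries. Gtsf1, a small zinc finger partner of PIWI proteins, followed at 484 FPKM and Ddx25, a helicase of the chromatoid body, at 321 FPKM. Ddx4, the germ cell helicase known as MVH or VASA, and Adad1, an RNA-binding protein needed for spermatid development, came next at 232 and 213 FPKM with overlapping ranges. Of the 32 members, 31 reached a mean of 1 FPKM, 28 reached 10 and 7 reached 100. Between neighbours in the order of levels, the ranges of the 12 libraries overlapped for 20 of 31 pairs.

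**Figure D1:**
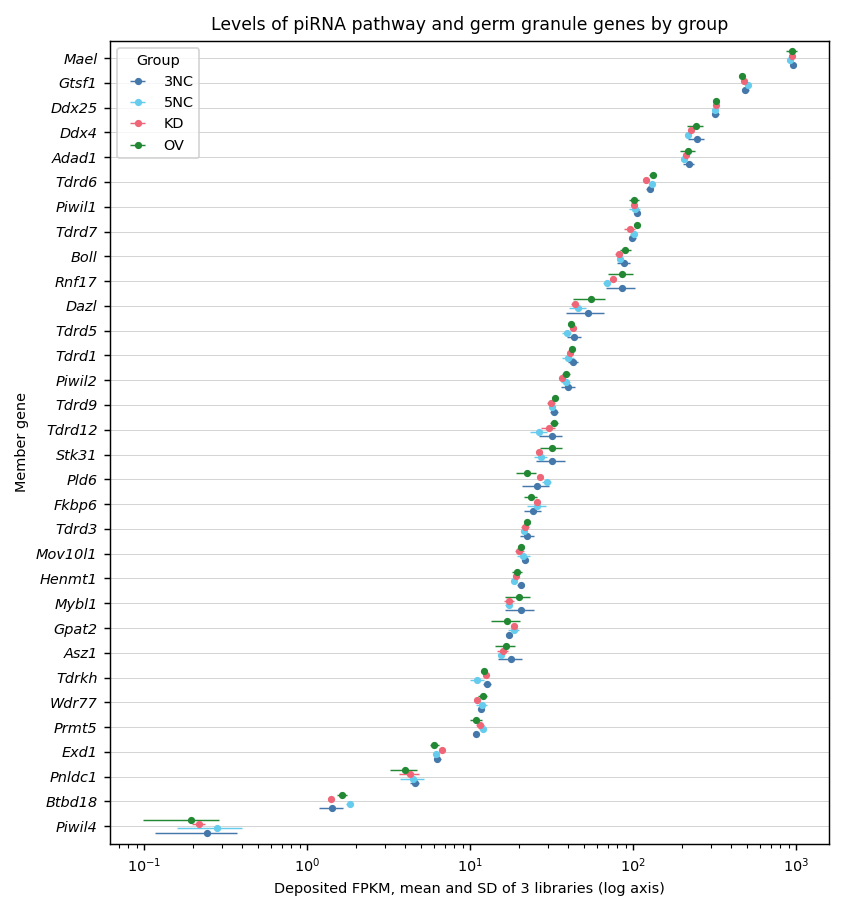
Deposited FPKM of the 32 members on a log axis, ordered by their mean over all libraries, with points for the mean and bars for the SD of 3 libraries in each of the 4 groups. The order runs from Mael at 939 FPKM to Piwil4 at 0.233 FPKM. The groups of each member lie close together compared with this full range, while many neighbours in the order overlap.

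The PIWI genes split sharply. Piwil1, which encodes MIWI, the PIWI protein of late spermatocytes and round spermatids, had a mean of 102.5 FPKM, and Piwil2, which encodes MILI and acts from fetal germ cells to spermatids, had 38.5. Piwil4 encodes MIWI2, the nuclear PIWI protein of fetal prospermatogonia, and had 0.233 FPKM, with 138 reads over all 12 libraries and between 5 and 20 in each. Piwil1 measured 401, 406 and 394 CPM in 3NC, 396, 367 and 385 in 5NC, 394, 393 and 374 in KD and 364, 417 and 371 in OV. Its highest library was 1.15 times its lowest, both of them in OV, so the treated group spanned the full range of the gene. Piwil2 measured 189, 211 and 178 CPM in 3NC, 186, 176 and 184 in 5NC, 186, 175 and 173 in KD and 174, 189 and 195 in OV, and the top value was that of 3NC replicate 2. Piwil4 measured 0.514, 1.22 and 0.591 CPM in 3NC, 1.16, 0.526 and 0.769 in 5NC, 0.765, 0.648 and 0.701 in KD and 0.321, 0.564 and 0.936 in OV, and its groups overlapped throughout. Testis is bulk tissue, and here and below fewer cells of a type and less RNA per cell cannot be told apart.

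Among the genes of precursor processing, Mov10l1, the helicase that binds piRNA precursors, had 20.9 FPKM on average, and Asz1, or GASZ, a mitochondrial scaffold of the intermitochondrial cement, had 16.4. Mov10l1 was one of the steadier members, with its highest library at 1.15 times its lowest, while Asz1 reached 1.29 times, with 3NC replicate 2 at the top. Henmt1, the methyltransferase of piRNA ends, had 19.4 FPKM with a span of 1.27 times, and its highest and lowest libraries, 3NC replicate 3 and 5NC replicate 1, were both controls. Pnldc1, the trimmer of piRNA intermediates, had 4.32 FPKM with a span of 1.44 times, and Exd1, a partner of Tdrd12, had 6.31 FPKM with a span of 1.20 times. For these 5 genes the highest library was 1.15 to 1.44 times the lowest. Their log2 fold changes in the 3 main comparisons were all between -0.18 and 0.11. Pld6 and Gpat2, of the same role, spanned 1.59 and 1.44 times.

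The Tudor domain scaffolds were led by Tdrd6, which organises the chromatoid body, at 127 FPKM and Tdrd7, also a chromatoid body protein, at 99.97 FPKM. Tdrd6 spanned 1.15 times between its lowest library, 5NC replicate 1, and its highest, OV replicate 1, and Tdrd7 spanned 1.21 times. Tdrd5 and Tdrd1, which act in the granules of spermatocytes, had 41.8 and 41.4 FPKM with overlapping ranges, and for both the highest library was 3NC replicate 2. Tdrd9, a helicase with a Tudor domain, had 32.2 FPKM and the narrowest span of the 9 at 1.14 times. Tdrd3, a Tudor protein that is not limited to germ cells, had 22.0 FPKM and a span of 1.25 times. Rnf17, Stk31 and Tdrd12 had the widest spans of the 9, at 1.63, 1.52 and 1.48 times.

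None of the 32 members passed an adjusted p of 0.05 in any comparison with edgeR's quasi-likelihood fit of all 4 groups and Benjamini-Hochberg adjustment over all 16320 genes. DESeq2 on the counts and limma on log2(FPKM + 0.1) also called 0 members. In OV against 5NC, 0 members were called, as were 0% of all genes tested, and 4 members (12.5%) had an unadjusted p under 0.05 against 10.4% of all genes. The OV and 5NC libraries did not overlap for 7 members (21.9%), against 15.2% of all genes. By value, 23 members were higher and 9 lower in OV, with a median log2 fold change of 0.042 where the median of all genes was -0.002. The 9 genes grouped as Tudor domain scaffolds were all higher by value in OV than in 5NC, from 0.04 to 0.33 on the log2 scale. Of the 9, 5 were higher in OV than in 3NC, and with a correction for GC content Tdrd3 lay at -0.07 ± 0.08 against 5NC. Tdrkh, which also has a Tudor domain but was grouped with precursor processing, lay at 0.20 against 5NC and -0.05 against 3NC. All of the fold changes without Piwil4 lay between -0.39 and 0.33, and their SEs between 0.065 and 0.171.

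Tdrd12, a Tudor domain helicase that works with MILI in secondary piRNA production, measured 112, 117 and 126 CPM in OV and 102, 89.9 and 102 in 5NC. The groups did not overlap, the log2 difference was 0.27 ± 0.09 (SE, n = 3 per group) and the adjusted p of edgeR was 0.409. Rnf17, a RING finger and Tudor protein of its own granule in male germ cells, measured 274, 279 and 370.4 CPM in OV and 229, 246 and 261 in 5NC. OV was above 5NC in every library, by 0.33 ± 0.13 on the log2 scale (edgeR adjusted p = 0.439), with OV replicate 3 far above the other OV libraries. Pld6, or MitoPLD, the mitochondrial endonuclease that cuts piRNA intermediates, measured 33.5, 42.5 and 33.4 CPM in OV and 46.2, 52.2 and 45.3 in 5NC. It was lower in OV by value, with a log2 difference of -0.39 ± 0.13 and the smallest adjusted p of the 32 members, 0.404 by edgeR. Same-numbered OV and 5NC libraries deviated together weakly, at correlations of 0.109 to 0.165 across genes, and pairing is not stated in the labels. A fit of these 6 libraries with the replicate number as a block called 215 genes. Their share of all genes tested in that fit is not given here. Of the 32 members Pld6 alone was among them, at -0.40 ± 0.10 and an edgeR adjusted p of 0.0374. With a correction for transcript GC content added to that fit, its difference was -0.19 ± 0.09 and the edgeR adjusted p was 0.55. Gtsf1 measured 293, 281 and 274 CPM in OV and 299, 326 and 299 in 5NC, a log2 difference of -0.12 ± 0.07 with no overlap (edgeR adjusted p = 0.516).

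Piwil1 and Piwil2 differed between OV and 5NC by 0.01 ± 0.07 and 0.04 ± 0.07 on the log2 scale, both within their SE. Ddx4 measured 615, 616 and 744 CPM in OV and 551, 585 and 612 in 5NC, with OV above 5NC by 0.18 ± 0.09 (edgeR adjusted p = 0.498), and only OV replicate 3 lay well clear of the 5NC libraries. Mybl1 measured 84.9, 87.8 and 115 CPM in OV and 81.0, 80.1 and 85.2 in 5NC, a difference of 0.22 ± 0.13 (edgeR adjusted p = 0.533) in which the groups overlapped. Piwil4, at 5 to 20 reads per library, had a log2 difference of -0.43 ± 0.45.

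In KD against 3NC, 0 members were called against 0.178% of all genes tested, and 0 had an unadjusted p under 0.05 against 6% of all genes. The libraries of KD and 3NC did not overlap for 4 members (12.5%), against 16.5% of all genes. By value 7 members were higher and 25 lower in KD, with a median log2 fold change of -0.051 where that of all genes was -0.002. Stk31, a Tudor domain kinase-like protein of germ cells, measured 84.6, 82.9 and 82.6 CPM in KD and 93.8, 120.5 and 83.7 in 3NC. The KD libraries were tight while 3NC replicate 2 stood above all others, and the log2 difference was -0.25 ± 0.13 (edgeR adjusted p = 0.764). Mybl1 measured 86.8, 88.9 and 79.2 CPM in KD and 87.3, 121 and 88.9 in 3NC, a difference of -0.22 ± 0.13 (edgeR adjusted p = 0.764), with the same 3NC library at the top.

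Among members higher in KD by value, Fkbp6, a co-chaperone of HSP90 in piRNA loading and transposon silencing, measured 32.8, 32.2 and 33.9 CPM in KD and 34.9, 26.9 and 30.1 in 3NC, a log2 difference of 0.11 ± 0.11. Prmt5, the arginine methyltransferase that modifies PIWI proteins, measured 28.7, 31 and 27.9 CPM in KD and 26.6, 26.8 and 28.5 in 3NC, a difference of 0.10 ± 0.09. The groups of both genes overlapped. The Prmt5 cofactor Wdr77 lay the other way, at -0.07 ± 0.08, and its groups did not overlap. Piwil1, Piwil2 and Ddx4 differed by -0.05 ± 0.07, -0.12 ± 0.07 and -0.11 ± 0.09, and Piwil4 by -0.14 ± 0.45.

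The control groups were set against each other in the same fit. In 5NC against 3NC, 0 members were called against 0.362% of all genes tested, and 5 members (15.6%), all lower in 5NC, had an unadjusted p under 0.05 against 12.1% of all genes. The groups did not overlap for 8 members (25%), against 16.9% of all genes. By value 8 members were higher and 24 lower in 5NC, with a median of -0.085 where that of all genes was 0.010. Tdrkh, the Tudor and KH domain protein that brings PIWI proteins to mitochondria for trimming, measured 44.0, 41.0 and 44.3 CPM in 5NC and 53.7, 51.3 and 48.9 in 3NC. The 5NC libraries were all below the 3NC libraries, by -0.25 ± 0.08 on the log2 scale (edgeR adjusted p = 0.314). Rnf17 measured 229, 246 and 261 CPM in 5NC and 282, 374 and 268 in 3NC, a difference of -0.33 ± 0.13 (edgeR adjusted p = 0.374) without overlap. Ddx4 was lower in 5NC by value at -0.20 ± 0.09 (edgeR adjusted p = 0.41) and Mybl1 at -0.27 ± 0.13 (edgeR adjusted p = 0.417), both without overlap. Without 3NC replicate 2 and OV replicate 3 these were -0.11 and -0.09, and Rnf17 was -0.16.

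Btbd18, the nuclear factor that activates transcription of pachytene piRNA precursors, lay the other way from Mybl1. It measured 5.92, 6.38 and 5.77 CPM in 5NC and 5.59, 3.90 and 4.86 in 3NC, a log2 difference of 0.33 ± 0.16 (edgeR adjusted p = 0.414) with no overlap. Pld6 measured 46.2, 52.2 and 45.3 CPM in 5NC and 48.3, 32.9 and 45.2 in 3NC, a difference of 0.18 ± 0.13 in which 3NC replicate 2 alone was far from the rest. Piwil1 and Piwil2 differed by -0.07 ± 0.07 and -0.08 ± 0.07, and Piwil4 by 0.08 ± 0.44.

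The 3 comparisons share libraries: 5NC stands in the first and the last, and 3NC in the last and in the KD comparison. A low value in 5NC therefore gives a positive value in the first and a negative one in the last. Against the other control, OV had 10 members higher and 22 lower than 3NC by value, a median of -0.027, with 0 called against 0.319% of all genes, 0 with an unadjusted p under 0.05 against 5.34%, and 1 without overlap against 7.76%. Rnf17, higher by 0.33 against 5NC, differed by -0.002 against 3NC, and Ddx4 by -0.02. KD had 19 members higher and 13 lower than 5NC, a median of 0.025, with 0 called against 0.049% of all genes, 2 with an unadjusted p under 0.05 against 5.06%, and 6 without overlap against 13.7%. Over all 4 groups 0 members were called against 0.337% of genes, and 2, Tdrkh and Tdrd12, had an unadjusted p under 0.05 against 9.07% of genes.

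How far the effect in OV differed from that in KD, each against its own control, was tested as a contrast of the same fit. It called 0 members against 0.0613% of all genes, and 7 members (21.9%) had an unadjusted p under 0.05 against 15.7% of all genes. By value 24 members had the higher effect in OV and 8 the lower, with a median of 0.11 where that of all genes was 0.0001. The smallest edgeR adjusted p was that of Tdrd12, 0.262, for a difference of 0.38 ± 0.13. Dazl, the germ cell RNA-binding protein required for entry into meiosis, had the highest value at 0.54 ± 0.24 (edgeR adjusted p = 0.314), and Pld6 the lowest at -0.47 ± 0.19 (edgeR adjusted p = 0.283). With a correction for GC content, Dazl was 0.13, Pld6 -0.09 and Tdrd12 0.21, and the members with an unadjusted p under 0.05 were 3. Without 3NC replicate 2 and OV replicate 3, Dazl was 0.11, Pld6 -0.26 and Tdrd12 0.22, and 1 member had such a p. Shares of all genes under that p, with the correction or without these libraries, are not given here. The counts of members are therefore not set against those of the main fit.

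**Figure D2:**
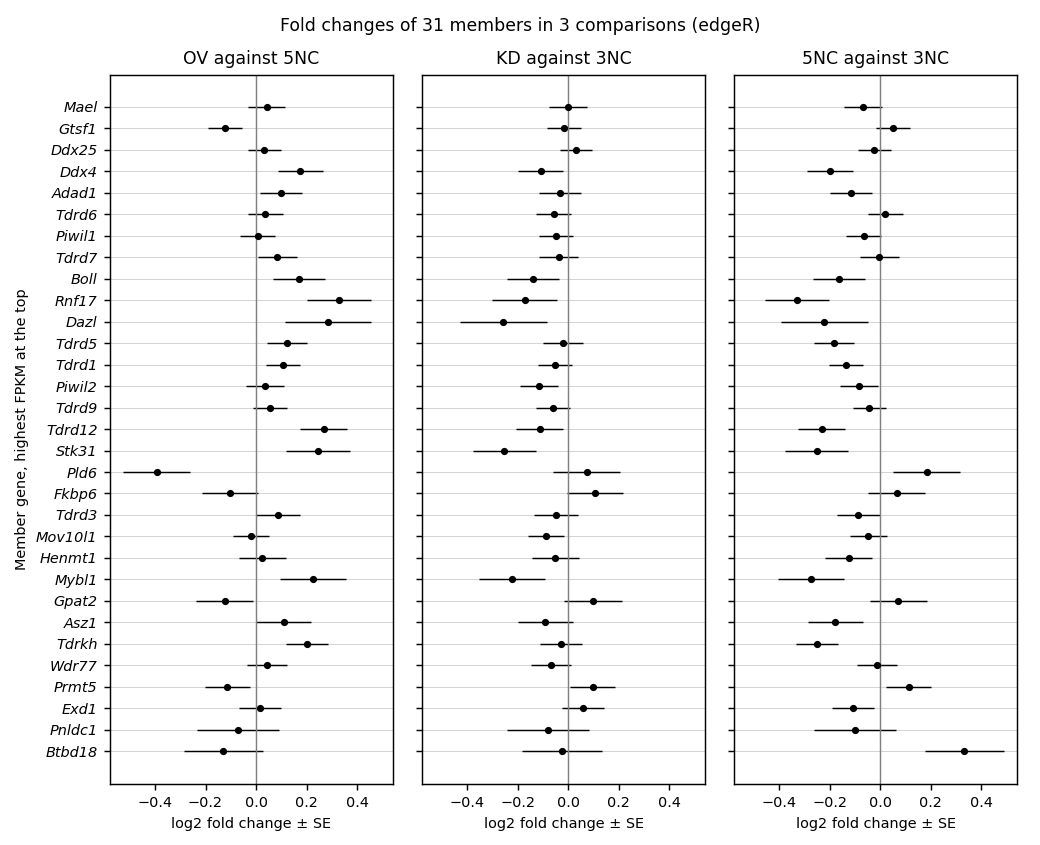
Log2 fold changes of 31 members with their approximate SE, for OV against 5NC, KD against 3NC and 5NC against 3NC, ordered by FPKM; Piwil4 is left out because its SE is over 0.4. Values of members such as Rnf17, Stk31, Dazl and Mybl1 lie to the right in the first panel and to the left in the others, and all members lie between -0.39 and 0.33.

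Many of the high values of members came from the same 2 libraries. In 3NC replicate 2 and OV replicate 3, 13 of the 32 members (40.6%) were above all 10 other libraries, against 16.3% of all genes tested. They were Piwil2, Ddx4, Tdrd1, Tdrd3, Tdrd12, Asz1, Rnf17, Mybl1, Stk31, Ddx25, Dazl, Boll and Adad1. For 2 members (6.25%), Pld6 and Gtsf1, both libraries were below the other 10, against 15.8% of all genes. A library was the highest of the 12 for 10 members in the case of 3NC replicate 2 and for 9 in the case of OV replicate 3, against 15.6% and 13.5% of all genes. The library 5NC replicate 1 was the lowest for 12 members, against 15.7% of all genes. The pair of libraries, and the genes given with all their values in the following paragraphs, were chosen after the values were seen. The share of 40.6% therefore describes the pair and is not a test.

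Dazl measured 129.6, 191 and 126 CPM in 3NC, 139, 117 and 127 in 5NC, 132, 121 and 122 in KD and 133, 138 and 197 in OV. The high libraries lay 0.48 and 0.52 above its mean on the log2 scale, and the highest of the others 0.02 above it, so 3NC and OV each had 1 high library. Rnf17 lay 0.41 and 0.40 above its mean in the same libraries, Mybl1 0.43 and 0.36, and Stk31 0.41 and 0.37. Boll, the relative of Dazl that acts in meiosis and spermatids, measured 137, 167 and 133 CPM in 3NC, 124, 128 and 139 in 5NC, 141, 124 and 133 in KD and 134, 139 and 168 in OV, with the same libraries 0.28 and 0.28 above the mean. Pld6 lay at -0.36 and -0.34 in these libraries, but also at -0.34 in OV replicate 1. Gpat2, a mitochondrial outer membrane protein that binds MILI, measured 45.4, 41.5 and 44.1 CPM in 3NC and 38.6, 51.7 and 35.9 in OV, and its lowest values were those of OV replicate 3 and OV replicate 1. Btbd18 parted the pair, at -0.41 in 3NC replicate 2 and 0.18 in OV replicate 3, on few reads.

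**Figure D3:**
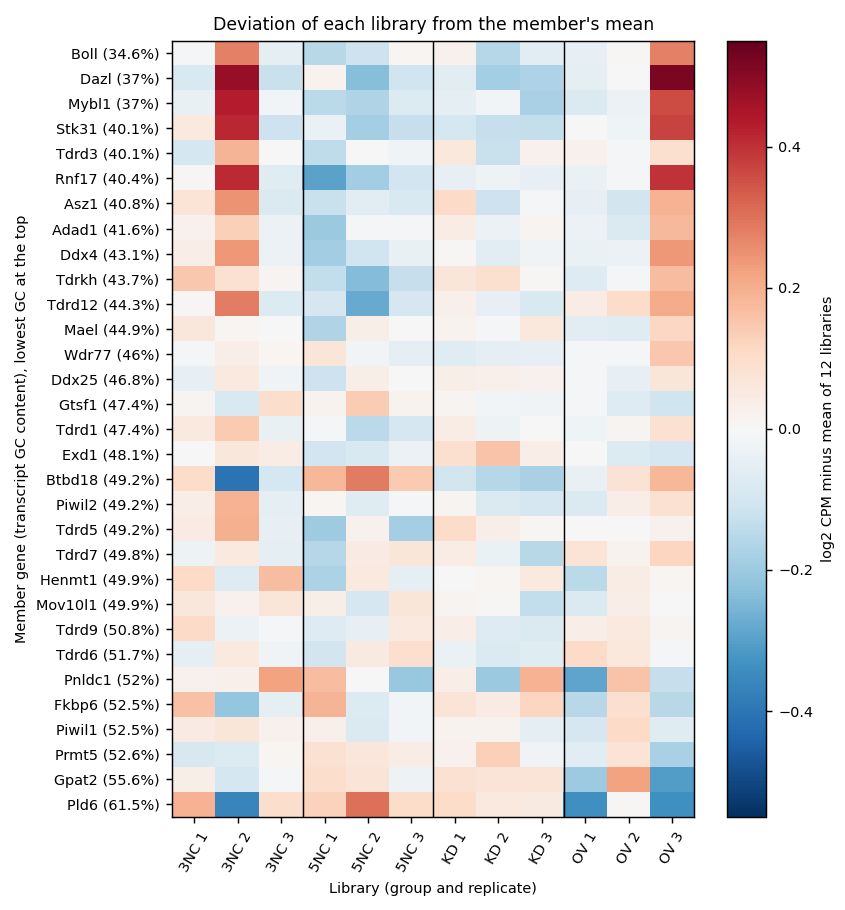
Difference of log2 CPM in each of the 12 libraries from the mean of all libraries, for 31 members ordered by the GC content of their transcript, with red above and blue below the mean. The columns of 3NC replicate 2 and OV replicate 3 are red at the top, where GC content is low, and mostly blue at the bottom. Btbd18 in 3NC replicate 2 is an exception, and Gtsf1, near the middle, is blue in both.

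The members that were high in this pair of libraries had transcripts lower in G and C by the median, though not each of them. Their median GC content was 40.8%, with a range of 34.6% to 49.2%, and that of all 32 members was 47.8%; GC content was taken from the longest protein-coding GENCODE vM21 transcript. Pld6 had the highest GC content of the members at 61.5%. Gtsf1, also below the other libraries in both, had 47.4%, just under the median of all members. The difference in base composition can be read from the middle 150 coding bases of low-GC Rnf17 and Dazl and of high-GC Pld6, from the same transcripts on GRCm38, with G and C in capitals. The stretch of Rnf17 lies within chr14:56475463-56477687 on the plus strand, that of Dazl within chr17:50286299-50287653 on the minus strand, both joined across exons, and that of Pld6 at chr11:59787228-59787377 on the minus strand in a single exon.
Rnf17: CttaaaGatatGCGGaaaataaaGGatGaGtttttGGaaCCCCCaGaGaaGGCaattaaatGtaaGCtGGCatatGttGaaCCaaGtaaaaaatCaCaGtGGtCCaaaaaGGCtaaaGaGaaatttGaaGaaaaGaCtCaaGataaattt
Dazl: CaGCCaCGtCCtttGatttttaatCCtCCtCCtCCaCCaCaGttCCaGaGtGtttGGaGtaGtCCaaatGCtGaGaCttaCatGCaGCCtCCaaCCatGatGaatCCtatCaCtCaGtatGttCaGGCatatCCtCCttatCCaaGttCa
Pld6: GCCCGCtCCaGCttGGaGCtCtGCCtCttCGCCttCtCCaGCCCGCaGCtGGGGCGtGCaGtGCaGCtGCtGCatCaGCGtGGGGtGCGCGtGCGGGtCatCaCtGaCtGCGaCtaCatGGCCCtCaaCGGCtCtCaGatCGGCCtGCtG
In these stretches G and C made up 51, 68 and 100 of the 150 bases, and over the whole coding sequence 40.3%, 43.8% and 63.5%. Over the whole transcript they made up 40.4%, 37% and 61.5%. The stretch of Dazl, at 45.3%, therefore shows little of the low GC content of its transcript. Gpat2, next lowest after Pld6 in the pair on average, had 79 in its own stretch, which is not shown.

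The same slope was present across all genes. Sorted by GC content into 5 classes of like size, the 3193 genes of the lowest class had a median deviation of 0.26 on the log2 scale in 3NC replicate 2 and 0.24 in OV replicate 3. The 3192 genes of the highest class had -0.30 and -0.27 in these libraries. In the other 10 libraries the medians of the lowest class lay between -0.11 and 0.0003, and those of the highest class between 0.005 and 0.12. The opposite tilt was largest in 5NC replicates 1 and 2, with -0.07 and -0.11 in the lowest class and 0.12 and 0.10 in the highest. The lowest class held 10 of the 32 members, whose median deviations of 0.26 and 0.26 in the pair were close to those of all genes in that class. The highest class held 1 member, Pld6. Spermatocyte marker genes were high in the same libraries, and their part in the members' values was not tested. The 10 listed spermatocyte markers, among them Sycp3 and Spo11, had median deviations of 0.20 and 0.23 there and between -0.11 and 0.01 in the other libraries. Their summed FPKM was 3858 to 4081 in 3NC, 3767 to 4002 in 5NC, 3885 to 3972 in KD and 3817 to 3996 in OV, with 0 markers at 0.

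**Figure D4:**
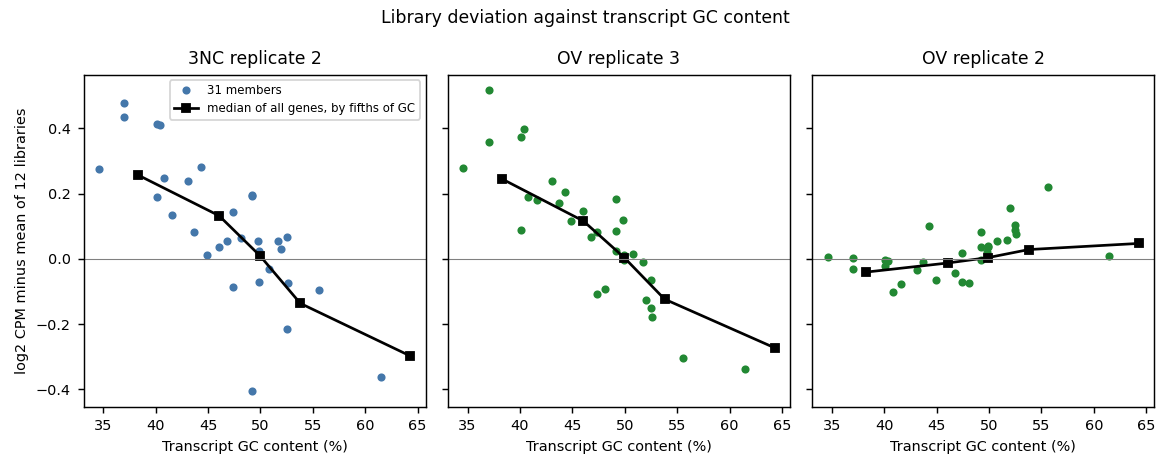
Deviation of log2 CPM from the mean of 12 libraries against transcript GC content for 31 members (points) and the median of all genes in 5 GC classes at the middle of each class (squares), in 3NC replicate 2, OV replicate 3 and, for comparison, OV replicate 2. In the first pair of panels the all-gene medians run from 0.26 and 0.24 down to -0.30 and -0.27, and in OV replicate 2 from -0.04 to 0.05.

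With a correction of each library for transcript GC content, added after the data were seen, most of the members' differences became smaller. The members with an unadjusted edgeR p under 0.05 were 4 in OV against 5NC and 5 in 5NC against 3NC, as without the correction. Gtsf1 took the place of Tdrkh in OV against 5NC, and Btbd18 that of Ddx4 in 5NC against 3NC. The share of all genes under that p with the correction is not given here, so these counts are not a result about the members. In OV against 5NC the median size of the log2 fold change went from 0.108 to 0.065, with 24 of 32 members nearer to 0, and the members then stood at 15 higher and 17 lower. In KD against 3NC the median size went from 0.071 to 0.063, and in 5NC against 3NC from 0.111 to 0.069, with 20 of 32 members nearer to 0 in each. Dazl in OV against 5NC went from 0.28 to 0.06, Mybl1 from 0.22 to 0.01, Pld6 from -0.39 to -0.19 and Rnf17 from 0.33 to 0.17 ± 0.06 (edgeR adjusted p = 0.473). Tdrd12 went from 0.27 to 0.18 ± 0.06 (edgeR adjusted p = 0.433). Gtsf1 moved away from 0 in OV against 5NC, from -0.12 to -0.16, and Btbd18 in 5NC against 3NC went from 0.33 to 0.34. In 5NC against 3NC, Tdrkh went from -0.25 to -0.15, Rnf17 from -0.33 to -0.17, Mybl1 from -0.27 to -0.07 and Ddx4 from -0.20 to -0.09. No member was called with the correction in edgeR, while 0, 34, 77 and 12 of all genes tested were called in OV against 5NC, KD against 3NC, 5NC against 3NC and the difference of effects.

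Left out together, the 2 libraries gave 18 members higher and 14 lower in OV against 5NC (median 0.018), 10 and 22 in KD against 3NC (median -0.025) and 12 and 20 in 5NC against 3NC (median -0.050). This step was added after the data were seen. Dazl in OV against 5NC was then 0.07 ± 0.07, Stk31 0.10 ± 0.06 and Mybl1 0.07 ± 0.06. Pld6 at -0.34 ± 0.10 (edgeR adjusted p = 0.27) and Tdrd12 at 0.22 ± 0.07 (edgeR adjusted p = 0.294) kept more of their size. In 5NC against 3NC, Tdrkh was -0.24 ± 0.07 (edgeR adjusted p = 0.305), against -0.25 with all libraries. No member was called, while 36, 18, 41 and 12 of all genes tested were called in the 4 comparisons in the same order as above.

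**Figure D5:**
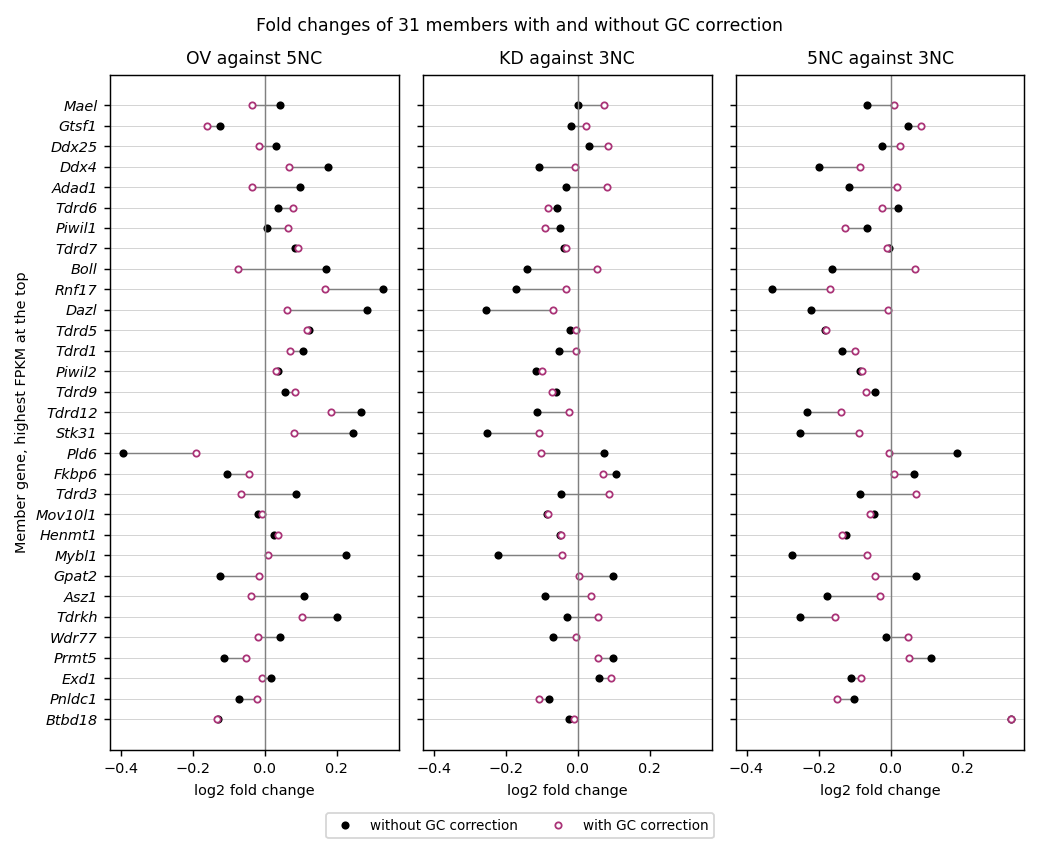
Log2 fold changes of 31 members in 3 comparisons without (filled) and with (open) correction for transcript GC content, joined by a line for each member. In OV against 5NC 24 of all 32 members are nearer to 0 with the correction; Pld6 goes from -0.39 to -0.19.

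The control library 5NC replicate 1, lowest for 12 members, also had higher levels of somatic cell markers. Its 10 Sertoli cell markers summed to 963 FPKM, against 457 to 633 in the other libraries, with a median deviation of 0.55. In the groups the sum was 457 to 621 in 3NC, 612 to 963 in 5NC, 608 to 633 in KD and 495 to 593 in OV, with 0 of the markers at 0. The 8 Leydig cell markers summed to 4430 FPKM there, against 1842 to 2746 elsewhere, and round spermatid markers had a median deviation of -0.21. By median deviation the Leydig cell markers were at 0.38 in 5NC replicate 1, below the 0.49 of 3NC replicate 2. The part of these cells in the members' low values was not tested; without this library the members stood at 19 higher and 13 lower in OV against 5NC (median 0.029) and at 8 and 24 in 5NC against 3NC (median -0.075). The other 5NC libraries held markers of the epididymis, the duct beside the testis, at a summed 104 and 102 FPKM over 5 genes, against 1.19 to 15.3 in the rest. Markers of macrophages and other leukocytes summed to 54.5 to 132 FPKM in OV and 36.2 to 69.1 in the other groups, also not tested against the members.

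The promoters of the members were searched for 2 short motifs in RefSeq windows (GRCm38.p6) of 250 bases before to 50 after a start site. The windows of 26 members were at hand; Pnldc1, Piwil2, Mybl1, Adad1, Tdrd6 and Rnf17 were without one. GCAGTT on either strand, part of the sequence bound by MYB proteins, was found in 4 of the 26 members (15.4%), Boll, Piwil1, Tdrd1 and Tdrd7, against 15.5% of 27025 genes with a window. TGACGTCA, the palindromic cAMP response element, was found in 0 of 26 members and in 2.03% of genes. The windows of Boll and Piwil1 are shown because Boll was among the 13 members high in the pair of libraries and Piwil1 was not; the motif is in capitals, as its reverse complement in Boll. They lie at chr1:55363704-55364003 on the minus strand and chr5:128735996-128736295 on the plus strand, with the motif from 125 and 74 bases before the start site. Boll had another window, chr1:55362679-55362978, without the motif, and a gene was counted if any of its windows held it.
Boll: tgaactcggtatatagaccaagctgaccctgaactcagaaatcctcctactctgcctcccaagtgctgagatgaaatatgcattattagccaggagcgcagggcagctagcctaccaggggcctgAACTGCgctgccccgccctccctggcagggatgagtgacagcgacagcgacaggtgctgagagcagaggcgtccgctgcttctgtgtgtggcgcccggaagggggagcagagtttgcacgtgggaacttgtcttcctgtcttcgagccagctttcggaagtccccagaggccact
Piwil1: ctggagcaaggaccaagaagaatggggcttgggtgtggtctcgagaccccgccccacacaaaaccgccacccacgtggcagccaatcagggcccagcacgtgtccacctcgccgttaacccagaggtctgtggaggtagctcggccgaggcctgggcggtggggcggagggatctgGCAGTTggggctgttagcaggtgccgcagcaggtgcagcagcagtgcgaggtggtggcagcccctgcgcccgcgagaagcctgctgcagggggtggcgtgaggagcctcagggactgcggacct
A match of these letters is not a binding site, and the share among members was close to that among all genes.

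Beside the 32 members, 31 other genes of the pathway were listed, among them fetal silencing factors, chromatoid body proteins and RNA decay factors; 30 were in the table and 28 were tested. None of the 28 passed an adjusted p of 0.05 in edgeR in OV against 5NC, KD against 3NC, 5NC against 3NC or the difference of effects, and 4, 1, 3 and 5 of them had an unadjusted p under 0.05. These were 14.3%, 3.57%, 10.7% and 17.9% of the list, near the 10.4%, 6%, 12.1% and 15.7% of all genes. By value 20 of 28 were higher in OV than in 5NC, 18 lower in KD than in 3NC and 19 lower in 5NC than in 3NC. Upf2, a nonsense-mediated decay factor, had the smallest p of those higher in OV at 0.27 ± 0.10 (edgeR adjusted p = 0.415) and of those lower in 5NC at -0.30 ± 0.10 (edgeR adjusted p = 0.289). Tex19.1, a mammal-specific factor that restrains retrotransposons, had the smallest p of those lower in OV at -0.35 ± 0.18 (edgeR adjusted p = 0.492). Ddx6, a helicase of RNA decay bodies, was -0.24 ± 0.10 in KD against 3NC and Ybx2, an RNA-storage protein of spermatids, 0.19 ± 0.15, with edgeR adjusted p of 0.764 and 0.767. Snd1, a Tudor nuclease, was the first of those higher in 5NC at 0.19 ± 0.14 (edgeR adjusted p = 0.57).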

How the data were processed

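Testis RNA of 12 mouse samples was sequenced, 3 in each of 4 groups. The authors deposited, per the file headers, expected counts per gene without normalisation and normalised values. The unit FPKM was inferred for the deposited normalised values: over 5771 genes with a high count, the value of 1 read varied between libraries as 1 over their totals, within a median of 0.286%. Of the counts 88% were whole within 1e-06, and all were rounded. The build was mm10 per the submitters' processing notes; for aligner, counting program, annotation and strandedness, the sources used here name none. The table also holds 18 per-sample columns that were not used here.

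Counts were tested with edgeR 4.0.16 (R 4.3.3): TMM scaling (factors 0.986 to 1.058), filterByExpr at 10 counts (total 15), and robust quasi-likelihood fits of all 4 groups. The common biological coefficient of variation across genes was 0.13. Calls needed an adjusted p under 0.05 (Benjamini-Hochberg, over all genes tested). SEs are approximate, from the fold change and its F value. Alternatives were DESeq2 1.42.0, limma 3.58.1 on log2(FPKM + 0.1), other filters, the other control, each library left out, a replicate block and, added after the data were seen, a lowess correction for GC content (97.8% of tested genes had a value), the loss of 2 libraries together and 2-group fits with the block. The scripts were tested on simulated data.

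Deviations of OV and 5NC libraries of the same number from their group means correlated across genes at 0.165, 0.149 and 0.109, which met the rule for pairing; those of KD with 3NC and 5NC with 3NC did not. The number comes from the sample titles, and pairing is inferred from the data alone. All values per library were given for the 2 members of smallest p in each direction in each comparison, for Piwil1, Piwil2, Piwil4, Mybl1 and Ddx4, and for others where stated; of the other pathway genes, the 1 of smallest p in each direction was named. The members and lists were chosen with earlier results of these data known.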

Additional observations from a re-analysis of the deposited data

How the results depend on the processing

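Of 715 values under alternatives, 637 kept their direction and side of the threshold or stayed within the spread, and 92 of 93 counts of members called stayed at 0. The exception was the replicate block in the fit of OV and 5NC alone, with 1 member called, Pld6; the cause was not tested. Genes called in OV against 5NC, KD against 3NC, 5NC against 3NC, the difference of effects and any difference were 50, 71, 148, 96 and 283 with DESeq2 and 1, 14, 28, 4 and 30 with limma on FPKM, against 0, 29, 59, 10 and 55 in edgeR. Without 3NC replicate 2 and OV replicate 3 together they were 36 in OV against 5NC, 18 in KD against 3NC and 144 for any difference; the members' median difference of effects was then 0.059. The replicate block in 2-group fits called 215, 77 and 94 genes, and 81 and 141 with GC correction in OV against 5NC and KD against 3NC; in KD against 3NC and 5NC against 3NC the numbers did not meet the rule for pairing. The block in the fit of all 4 groups called no member. With the other control, OV had 52 genes called and a members' median of -0.027, and KD 8 and 0.025. GC correction gave members' medians of -0.0086 (OV against 5NC), -0.037 (5NC against 3NC) and 0.050 (difference of effects), and -0.0098, -0.0051 and -0.036 with the block in the first 3 comparisons.

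Leaving out each library in turn gave 0 to 5 genes called in OV against 5NC, 10 to 22 in KD against 3NC, 16 to 66 in 5NC against 3NC, 4 to 23 for the difference of effects and 28 to 126 for any difference. The members' medians ran from 0.020 (without OV replicate 3) to 0.075 (without OV replicate 1) in OV against 5NC, from -0.069 to -0.025 (without 3NC replicate 2) in KD against 3NC, from -0.112 to -0.051 (without 3NC replicate 2) in 5NC against 3NC and from 0.075 (without 3NC replicate 2) to 0.133 for the difference of effects.

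Reversed signs were as follows. Piwil1 in OV against 5NC was -0.0011 without the count filter, -0.014 with limma, -0.0016 with the replicate block, and ran from -0.053 to 0.043 with 1 library left out (below 0 without 5NC or OV replicate 2, -0.029 for the former). Piwil2 ran from -0.0029 (without OV replicate 3) to 0.081 and was -0.0049 without both libraries. With the other control, Rnf17 (0.33 against 5NC) was -0.0018, Piwil1 -0.060, Piwil2 -0.049, Mybl1 -0.048 and Ddx4 -0.023 in OV. Against 5NC, Prmt5 was -0.015, Mybl1 (-0.22 against 3NC) 0.050, Piwil1 0.017 and Ddx4 (-0.11 against 3NC) 0.090 in KD. Pld6 in 5NC against 3NC was -0.0049 with GC correction and -0.0052 with the block added. Piwil4 was 0.35 in KD against 3NC without 3NC replicate 2, alone or with OV replicate 3, and as low as -0.37 with another library left out. It was -0.14, -0.076 and -0.26 in 5NC against 3NC without 3NC replicate 1, 3NC replicate 3 or 5NC replicate 1, and 0.57 without 3NC replicate 2. Fits restricted to the groups compared are the same as the full fit for the difference of effects and any difference, so none was run there. Protein sequence features were not analysed here. With 3 libraries per group, SEs of the members other than Piwil4 were 0.065 to 0.171 in the comparisons of OV with 5NC, KD with 3NC and 5NC with 3NC, and 0.091 to 0.241 for the difference of effects, which limits the differences that can be seen; for Piwil4 the low read number does.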
